A study of Arabidopsis thaliana with 20 samples.

Results

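The siRNAs described here are those of 22 or 23 nt that had a cleavage record in *Arabidopsis* seedlings. A member is a query of the degradome records that is also listed as an siRNA in the table of small RNA levels, is 22 or 23 nt long in the record, and has at least 5 degradome reads at its site. The rule gave 27 members of 22 nt and 25 of 23 nt. These 52 came out of 4255 siRNAs in the table, of which 214 of 20–24 nt had such a record. Wild-type Col-0 seedlings (4-d-old) were grown in the dark (W0 h) and then moved to continuous white light. Small RNAs were sequenced from 3 replicates at W0 h and at 5 times in the light, from W1 h to W24 h. The labels name the TruSeq kit for replicates 1 and 2 and an older Illumina kit for replicate 3, so the kit and the third replicate cannot be told apart. Degradomes came from 1 library of dark seedlings and 1 in which RNA of the light time points was pooled, so dark and light site reads have no replicate check.

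Plant siRNAs and miRNAs guide Argonaute proteins to RNAs with a near-complementary sequence, and the RNA is cut across from the bases at positions 10 and 11 of the small RNA. The downstream fragment keeps its new 5′ end, and degradome sequencing counts such ends along each transcript. In plants, most miRNAs are 21 nt. Forms of 22 nt are known for starting the production of secondary siRNAs from a cut transcript, and 22-nt siRNAs are the usual product of DCL2. Forms of 23 nt are also made by DCL3, which is better known for the 24-nt siRNAs of transposons and repeats.

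The sites with the most reads, those in *UCC2*, *SPL13B* and *AGO2*, were recorded with siRNAs that are forms of known miRNAs. Several such forms are therefore shown first. Letters in capitals are bases that the longest match to a mature miRNA of the study does not cover.
SRNA23731947 (miR403): uuagauucacgcacaaacucgA
SRNA22209406 (miR156): ugacagaagagagugagcacAA
SRNA22209520 (miR156, 23 nt): ugacagaagagagugagcacAAU
SRNA22209921 (miR156): ugacagaagagagugagcacAU
SRNA22580951 (miR408): ugcacugccucuucccuggcUC
SRNA22580969 (miR408): ugcacugccucuucccuggcUU
SRNA7986567 (miR408, 23 nt): augcacugccucuucccuggcUC
SRNA25157350 (miR159): uuuggauugaagggagcucuaU

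The sites of 3 of them are given 5′ to 3′ as RNA, with the base that starts the cleaved fragment in capitals. It is the base that faces position 10 of the siRNA.
AGO2 site: aggaguuugugcGugaaucuaa
SPL13B site: uugugcucucucUcuucuguca
UCC2 site: gagccaggguggAgucagugcu

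The members from the *MIR822* hairpin and from the trans-acting siRNA locus *TAS2* are shown next, because several of them share a hairpin, a locus or a target family. Capitals mark positions 10 and 11.
SRNA10033004 (MIR822): caucuacuuACacuuaaggucg
SRNA10431761 (MIR822): ccauacaugAAuaauaauuacc
SRNA24991825 (MIR822): uuucguggaGAaugaaaucaca
SRNA20045769 (TAS2): uauaucccaUUucuaccaucug
SRNA20045777 (TAS2, 23 nt): uauaucccaUUucuaccaucugu
SRNA24997818 (TAS2): uuucuaccaUCcgaucaacaag

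By these matches, 8 of the 27 members of 22 nt shared at least 16 bases with a miRNA, 4 mapped to or matched a *TAS* locus or phasiRNA, 3 lay in the *MIR822* hairpin and 1 in chloroplast rRNA. The other 11 had none of these origins in the genes annotated at their exact matches, which does not exclude repeats that are not annotated. Of the 25 members of 23 nt, 3 were forms of miRNAs, 2 were of *TAS* or phasiRNA origin, 1 matched rRNA in antisense and 19 had none of these origins by an exact match. Among the 19, SRNA6105008 matched the genome over its first 22 bases and pairs with 18S rRNA at a score of 1. An exact match to the nuclear, chloroplast or mitochondrial genome was found for 20 of the 22-nt and 16 of the 23-nt members. SRNA23731947, SRNA22209406, SRNA22580969 and SRNA25157350 matched over their first 21 bases only, and their last base was not in the genome at that place. SRNA20045777 is SRNA20045769 with 1 more base at its 3′ end, and only its first 22 bases matched. SRNA22209520 likewise holds SRNA22209406, and SRNA3664172 holds SRNA3664171. SRNA7986567 is SRNA22580951 with 1 more base at its 5′ end. Among 23-nt members, SRNA11858555 overlaps SRNA24100543 in sequence, and SRNA12725338 overlaps SRNA16051497. The first base was U in 21 of 27 members of 22 nt and in 8 of 25 of 23 nt, where A was found in 9. For comparison, U came first in 59 of 91 siRNAs of 20 and 21 nt with a record, and A in 43 of 71 of 24 nt.

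The 22-nt members had 32 sites in 30 genes and the 23-nt members 26 sites in 25 genes, which together made 56 sites in 51 genes. Sites of 22-nt members lay in the coding sequence in 20 cases, in the 3′ UTR in 8 and in noncoding exons in 4. For 23-nt members the coding sequence held 14 sites, noncoding exons 7, the 5′ UTR 2, the 3′ UTR 2, and 1 spanned coding sequence and UTR. The pairing score counts mismatches, gaps and wobbles, with 0 for perfect pairing. Its median was 3 for 22-nt members (0 to 16) and 8 for 23-nt members (0 to 26.5), against 3 for 20- and 21-nt and 7 for 24-nt siRNAs. A score of at most 4 was found for 17 of 32 pairs of 22 nt and 8 of 26 of 23 nt, and for 70 of 111 pairs of 20 and 21 nt and 21 of 80 of 24 nt. Each site is recorded with 1 query in a library, although several siRNAs of a family may pair there, so a read at a site cannot be assigned to one length alone.

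Of the 32 sites of 22-nt members, 12 were recorded with a 22-nt member in both libraries, 7 in the dark only and 13 in the light only. Of the 26 sites of 23-nt members, 3 were recorded with a 23-nt member in both, 9 in the dark only and 14 in the light only. Counting a record by any query, 16 sites of 22-nt and 5 of 23-nt members were recorded in both. CleaveLand ranks a site by category, with 0 for the single highest position of the transcript, 1 for a tie at the highest, and 2 for a position that exceeds the transcript's average without being the highest. Category 2 occurred in 7 light records of 22-nt members and 6 of 23-nt members, and in 0 of the dark ones. All of these records carry the same deposited p-value of 0.0494, close to the limit of 0.05. Some of their positions held more reads in the dark, where they have no record, so sites recorded in the light only are not sites with reads in the light only. Pairs of 22 nt with a score of at most 4 had a site recorded by any query in both libraries in 10 of 17 cases, and those with a score of 7 or more in 3 of 11. For 23 nt these were 2 of 8 and 3 of 15. Of the 22-nt pairs, 13 of the 17 and 2 of the 11 were of miRNA, *TAS*, phasiRNA or *MIR822* origin. For 23 nt these were 5 of 8 and 0 of 15, so score and origin cannot be told apart here.

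The site of SRNA23731947 is in the 3′ UTR of *AGO2* (AT1G31280), an Argonaute gene known as a target of miR403, in exon 3 of 3 at chr1:11185222-11185243 (TAIR10, plus strand). In the dark it held 691 of 1106 reads of the transcript, 62.5% (Wilson 95% interval 59.6–65.3), and in the light 650 of 1065, 61.0% (58.1–63.9). The next highest position held 11 reads in the dark and 9 in the light, so the site stood far above the rest of the transcript in both libraries. The siRNA itself was low, at most 0.617 RPM in any library from W0 h to W12 h. It was at 0 in the 3 libraries of W12 h, where a 0 may mean not listed rather than no reads. *AGO2* was the only 1 of 14 silencing genes considered (Argonautes, Dicers and their partners) with a site of a member.

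The SPL genes encode SBP-box transcription factors, which miR156 is known to repress in young plants. *SPL13B* (AT5G50670) was recorded with the 22-nt SRNA22209406 in the dark and the 23-nt SRNA22209520 in the light, both with a score of 1, at the same position of exon 4 of 4 (chr5:20616080-20616101, minus strand). The site held 1104 of 1578 reads in the dark (70.0%, 67.7–72.2) and 511 of 719 in the light (71.1%, 67.7–74.3). Its share was thus about the same, while its reads, scaled to mapped reads, were 2.05-fold lower in the light. In *SPL15* (AT3G57920) SRNA22209921 was recorded in the dark with 130 of 234 reads (55.6%, 49.2–61.8), and the same position held 190 of 350 in the light (54.3%, 49.0–59.4) in the record of another query. At position 856 of *SPL15*, next to that site at 855, SRNA24345967 of miR157 was recorded in the light with 10 reads. That position held 7 in the dark, without a record. In *SPL2* (AT5G43270) the site of SRNA13439450 at position 1160 held 44 of 3526 reads in the light, 1.25%, and the position next to it, 1159, held 1972. Position 1160 held 87 of 3686 (2.36%) in the dark, without a record. SRNA25157350, a form of miR159, had a site in *MYB33* (AT5G06100), a GAMYB gene, with 230 of 1423 reads in the light (16.2%, 14.3–18.2), where another query was recorded in the dark with 364 of 2315, and one in AT2G34010 with 131 of 584 in the dark and 98 of 371 in the light.

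Forms of miR408, which is known to target copper proteins, were recorded at 3 blue copper protein genes. *UCC2* (AT2G44790), encoding uclacyanin 2, had the most reads of any member's site, 3079 of 12353 in the dark (24.9%, 24.2–25.7) and 604 of 6649 in the light (9.08%, 8.42–9.80). The site lies in the 3′ UTR at chr2:18462150-18462171 (minus strand) and pairs with SRNA22580951 at a score of 5. AT1G72230, a cupredoxin gene, held 360 of 1717 reads at its site in the dark (21%, 19.1–23) and 72 of 1081 in the light (6.66%, 5.32–8.31). Both shares were lower in the light, but the intervals hold counting error alone. How often shares differed this much over all sites was not counted. In *ARPN* (AT2G02850), encoding plantacyanin, the site of SRNA22580969 held 399 of 645 reads in the dark (61.9%, 58.1–65.5) and 311 of 461 in the light (67.5%, 63.1–71.6), so it had a large share in both. AT2G47020, a peptide chain release factor gene, lies antisense to *MIR408* and was recorded at position 1500 with SRNA22580969 (38 of 338 reads in the dark, 17 of 238 in the light) and at position 1501 with the 23-nt SRNA7986567 (8 of 238 in the light, and 11 of 338 in the dark without a record).

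The 3 members from the *MIR822* hairpin differed in their recorded sites. SRNA10033004 was recorded at position 13 of the hairpin's own transcript (AT5G03552), with 497 of 1175 reads in the dark (42.3%, 39.5–45.1) and 121 of 327 in the light (37.0%, 31.9–42.4). Its score there was 3, and position 11 of the siRNA was unpaired. This siRNA matches the same transcript in sense, so the siRNA and its site are both parts of 1 hairpin transcript. SRNA10431761 was recorded at AT5G02350, with 28 of 87 reads in the dark and 17 of 55 in the light, at a score of 1. SRNA24991825 was recorded at AT4G02540 in the light only, with 5 of 738 reads, the lowest number the rule allows. The 23-nt record at AT1G76640 also held 5, while records with 4 reads at AT1G51090 and AT5G49560 (22 nt) and AT4G38190 (23 nt) were left out. AT5G02350 and AT4G02540 both encode Cys/His-rich C1 domain proteins.

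*TAS2* transcripts are cut under miR173 guidance and give rise to phased siRNAs, some of which are known to target pentatricopeptide repeat genes. SRNA20045769 and SRNA20045777 were recorded at the same position of AT1G63130, which the annotation names as a tetratricopeptide repeat-like gene. The 23-nt form was recorded in the dark, with 105 of 1095 reads (9.59%, 7.98–11.5), and the 22-nt form in the light, with 45 of 853 (5.28%, 3.97–6.99). SRNA20045769 was also recorded at AT1G63150, with 15 of 293 reads in the dark and 11 of 197 in the light. SRNA24997818 was recorded at AT3G52570, an alpha/beta-hydrolase gene, in the light (8 of 349 reads, score 5), with its position 11 unpaired. SRNA19546430, also from *TAS2*, was recorded at *SCAMP2* in the dark (10 of 346, score 10.5). SRNA20045777 was recorded at *TAS2* itself in the light with 37 of 2080 reads, where another position held 1436. The same position held 85 of 4963 in the dark, without a record. The 23-nt SRNA24373357 was recorded at *TAS3* with 21 of 4560 reads in the light, where another held 749, and the position held 12 of 4770 in the dark. Of the 5 *TAS* loci considered, these 2 had a site of a member, and all 5 had a site of some query. None of 12 photomorphogenesis regulators considered (such as *HY5*, phytochromes, cryptochromes and *COP1*) had a site of a member, nor of any query.

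Most of the remaining 22-nt members had looser pairing, with scores of 7 or more. The highest of their sites was in AT4G19400, a profilin family gene, with 443 of 1774 reads in the dark (25%, 23–27) and 372 of 1749 in the light (21.3%, 19.4–23.2), at a score of 12 with SRNA21024034, which matched the genome at 46 places. A score of 14 belonged to AT1G35980 (22 of 40 reads in the light), recorded with SRNA20686690, which is antisense to *TAS1B* and shares 20 bases with a phasiRNA. A score of 16 belonged to *GSTF8*, a glutathione S-transferase gene (45 of 5999 in the dark, and 106 of 13026 in the light without a record). Its query, SRNA24621975, matched the genome at 239 places. The other sites of these remaining members recorded in both libraries were in *VSR4*, a vacuolar sorting receptor gene (49 of 3924 reads in the dark and 34 of 2969 in the light), and AT3G55605. SRNA18528735 paired with the chloroplast serine tRNA gene *trnS* at a score of 1, where its site held 21 of 1252 reads in the light and the highest position 253. This siRNA had no exact match in the nuclear, chloroplast or mitochondrial genome, and only its first 14 bases matched. SRNA19409117 and SRNA19898258 overlap in sequence and paired perfectly with AT3G06435, to which they are antisense. Their sites held 19 and 13 of 398 reads in the light, below the highest position of 27, and the same positions held 36 and 27 of 878 in the dark, without a record.

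Among the 23-nt members other than forms of miRNAs and *TAS* siRNAs, the sites with most reads held small shares of their transcripts. The 18S rRNA gene AT2G01010 had 163 reads at the site of SRNA6105008 but 173141 in all (0.0941%, 0.0808–0.110), which ranked it 37 among the positions of that transcript. AT2G26210, an ankyrin repeat gene, held 112 of 2007 in the dark (5.58%, 4.66–6.67), and *TFIIS* (AT2G38560), encoding a transcript elongation factor, 47 of 855 in the light. AT1G54750 held 7 of 19 reads in the light and 3 of 6 in the dark, and *CHX14*, a cation/proton exchanger gene, 9 of 41 in the dark. Sites recorded in both libraries were those in AT1G14940 (42 of 161 in the dark, 18 of 96 in the light), *EFS*, a histone methyltransferase gene (30 of 1320 and 32 of 1354), and *ELO3*, an Elongator subunit gene (31 of 1590 and 38 of 1383). The pseudogene AT4G06477 held 28 and 70 of 11059 reads in the light at its sites of 23-nt members and 28 at that of the 22-nt SRNA3664171. The highest scores were 26.5 in *LOG7*, 21 in *ANNAT7* and 17 in AT1G76640.

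Site reads scaled to the mapped degradome reads of the library were compared between dark and light for sites recorded in both. Of 128 such sites of all queries, 18.8% were at least 2-fold lower in the light and 10.2% at least 2-fold higher, with a median light to dark ratio of 0.860. Of the 19 of them that are sites of members, 7 were lower and 1 was higher, and the median ratio was 0.733. The 7 were *UCC2* (4.83-fold), AT1G72230 (4.73-fold), *MIR822* (3.89-fold), AT1G14940 and AT1G63130 (both 2.21-fold), AT2G47020 at position 1500 (2.12-fold) and *SPL13B* (2.05-fold). The site that was higher was in AT3G55605, with 11 reads in the dark and 29 in the light. Transcript reads moved with some of them, as in *MIR822* (1175 and 327). In *UCC2* they also fell (12353 and 6649), but the share of the site fell as well, from 24.9% to 9.08%. Fewer cut transcripts and fewer transcripts cannot be told apart in a degradome. With 1 library of each kind, no test was made.

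The levels of the siRNAs themselves were low. The mean over the 15 libraries from W0 h to W12 h had a median of 2.04 RPM (reads scaled to the mapped reads of the library) for 22-nt members (0.0698 to 49.3) and 0.513 RPM for 23-nt members (0.0625 to 5), against 0.758 RPM for all siRNAs in the table. A library at 0 counted as 0 RPM in these means, although a 0 may mean not listed. The lowest of each length, SRNA3664171 (22 nt) and SRNA21239183 (23 nt), were at 0 in 12 of the 15 libraries. The highest were SRNA22209921 at 49.3 RPM, SRNA20045769 at 24.9 RPM, SRNA22580969 at 17.9 RPM and SRNA22209406 at 12.4 RPM among 22-nt members, and SRNA19366519 at 5 RPM, SRNA16051497 at 2.89 RPM, SRNA22213130 at 2.75 RPM and SRNA1759482 at 2.60 RPM among 23-nt members. Libraries of replicate 3 stood apart, and the order depended on them. In replicates 1 and 2 the highest means were those of SRNA20045769 (30.5 RPM), SRNA22580969 (26.5 RPM) and SRNA22633394 (14.3 RPM), while SRNA22209921 was at 9.71 RPM and SRNA22209406 at 1.31 RPM, against 129 and 34.7 RPM in replicate 3. The 23-nt SRNA19366519 was at 1.04 RPM in replicates 1 and 2 and 12.9 RPM in replicate 3. At W0 h SRNA22209921 was at 16.6, 12.1 and 125 RPM in replicates 1, 2 and 3, and SRNA22580969 at 26.0, 32.8 and 0.737 RPM. One was thus higher and the other lower in replicate 3. Over all 5 time points, SRNA24345967 was 87.0-fold higher in replicate 3 than in the mean of the other two.

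All recovered siRNA read numbers above 0 in both W1 h and W3 h of replicate 1 (3618 siRNAs) were equal, whereas the next most alike pair of libraries shared 8.05% of theirs. These 2 columns therefore do not give independent values, and the counts of calls are also given without them. From W0 h to W12 h, an siRNA at 0 in 1 library was at 0 in all 3 replicates of that time point. A 0 may therefore mark an siRNA that was not listed at that time point, and not one without reads. In all, 7 members of 22 nt and 10 of 23 nt were at 0 somewhere from W0 h to W12 h, so 20 and 15 were tested.

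By W12 h, 5 of the 20 tested 22-nt members and 1 of the 15 tested 23-nt members were lower than at W0 h, and 0 were higher (limma, Benjamini-Hochberg adjusted p under 0.05). Of all 2855 siRNAs tested, 5.36% were called at W12 h, and 3.92% were called lower. In a fit limited to siRNAs with a mean of at least 1 RPM, 201 of 1577 were called at W12 h, 160 of them lower. That fit called 5 of 16 members of 22 nt and 1 of 8 of 23 nt. At W6 h 0.21% of all 2855 were called, and at W1 h and W3 h 0%, with 0 members at any of these times. At an unadjusted p under 0.05, 2 members of 22 nt and 0 of 23 nt passed at W6 h, and 0 at W1 h and W3 h. By edgeR and DESeq2 0 members were called at these times. The median log2 change at W12 h was -0.65 for 22-nt members (16 of 20 below 0) and -0.48 for 23-nt members (14 of 15), and -0.45 for all siRNAs tested. Within replicates, the median of all was -0.74, -0.60 and 0.0034, and that of 22-nt members -1.19, -0.67 and 0.0035, so in both the median of replicate 3 was near 0. That of 23-nt members was -0.67, -0.62 and -0.29.

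SRNA20045769 was at 50.7, 28.7 and 18.4 RPM at W0 h and 16.4, 10.5 and 8.13 RPM at W12 h in replicates 1, 2 and 3. All values at W12 h were below all at W0 h, and the log2 change was -1.41 ± 0.26 (SE, n = 3, adjusted p = 0.0079 by limma). SRNA24997818, also from *TAS2*, was at 10.9, 9.62 and 8.67 RPM and then 4.5, 4.3 and 4.84 RPM. The groups did not overlap, with a change of -1.07 ± 0.27 (adjusted p = 0.035 by limma). SRNA24991825 of *MIR822* was at 1.87, 1.30 and 0.170 RPM and then 0.439, 0.478 and 0.0569 RPM, a change of -1.31 ± 0.34 (adjusted p = 0.040 by limma). It was lower in each replicate, but its groups overlapped. SRNA22633394 is antisense to AT3G06435. Its records at the F-box genes AT1G25055 (10 of 842 reads) and AT1G25211 (9 of 889) were in the dark only, at a score of 7. Both sites tied with another position for the most reads. The siRNA was at 15.7, 15.7 and 1.42 RPM and then 6.70, 11.9 and 0.455 RPM, a change of -1.02 ± 0.26 (adjusted p = 0.037 by limma). It was also lower in each replicate. SRNA22209921 of miR156 was at 6.59, 4.3 and 126 RPM at W12 h, lower in replicates 1 and 2 and not in 3, with a change of -0.93 ± 0.25 (adjusted p = 0.044 by limma). The 23-nt SRNA7986567 of miR408 was at 2.37, 2.55 and 0.624 RPM and then 1.32, 1.59 and 0.114 RPM, a change of -1.07 ± 0.28 (adjusted p = 0.043 by limma).

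These calls depended on the fit. Without the W1 h and W3 h columns of replicate 1, SRNA20045769 was the only member called at W12 h (adjusted p = 0.020 by limma), with 0 members called at the earlier times and 4 of all siRNAs called at W6 h, and the same member alone was called at W12 h when each library was shifted to a median ratio of 0 and by edgeR and DESeq2. At an unadjusted p under 0.05, the fit without these columns passed 1 member of 22 nt at W1 h and 2 at W6 h. The call of SRNA20045769 was lost without replicate 1 (adjusted p = 0.20 by limma) and without replicate 2 (adjusted p = 0.32). By edgeR the change of SRNA22633394 was -0.38 and that of SRNA7986567 -0.36, smaller than by limma, and DESeq2 gave -0.36 for both. With a pseudocount of 1 RPM the change of SRNA24991825 was -0.59. Without the replicate block, 0 members were called. Among all siRNAs, the split at W12 h was 41 higher and 112 lower, but 90 higher and 5 lower after the shift to a median of 0.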

How the data were processed

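Small RNA levels are RPM values that the authors deposited after adaptor trimming and mapping to TAIR10 (Bowtie 1.0.0, per the labels). All siRNA values came out as whole reads, within 0.05 of a read, on each library's mapped reads (17579785 to 20906003). The deposited degradome records of other type (CleaveLand4 4.3, per the file headers) list, for each query and transcript, the reads at every position, a category and a p-value, which the authors limited to category 2 and p of 0.05. Their p-values were not recomputed. 0 value columns were unused. W24 h was left out: its correlation with W12 h was 0.860, -0.037 and 0.010 in replicates 1, 2 and 3.

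Members and lists were chosen with earlier results of these data known. The classes of origin and the sequences printed were chosen after the values were seen. Named were the sites with most reads, the largest shares, the best and worst scores, the most abundant siRNAs, those called at W12 h, members sharing a target or sequence, and genes of the lists. Sites were placed on TAIR10.1, whose nuclear coordinates are those of TAIR10. The reads at a site in a library lacking its record came from other records of the transcript. Dark and light reads were scaled by the study's mapped degradome totals.

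siRNAs above 0 in all 15 libraries were tested on log2 of RPM plus 0.1 in limma 3.58.1 (R 4.3.3, eBayes with trend, Benjamini-Hochberg), with time and replicate as terms. Libraries of 1 replicate number deviated together (median r 0.851, 0.867 and 0.949), and the labels tie replicates 1 and 2 to one kit and 3 to another. edgeR 4.0.16 and DESeq2 1.42.0 on recovered reads were alternatives. The limma step was tested on simulated data. Shares carry 95% Wilson intervals, which hold counting error alone. The replicates are called biological by the study.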

Additional observations from a re-analysis of the deposited data

Results flagged for a closer look

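SRNA3664171, a 22-nt siRNA recorded at the pseudogene AT4G06477, was listed at 0 RPM in all 3 libraries of W0 h and at 0.28, 0.0930 and 1.06 RPM in replicates 1, 2 and 3 of W24 h, a time point that no comparison uses. It was picked out because its lowest W24 h value was above the highest W0 h value. The W24 h columns of replicates 2 and 3 had correlations near 0 with W12 h, so the values are only listed. At W12 h it was at 0.44, 0.27 and 0.34 RPM. Its 0 at W0 h may mean that it was not listed at that time point, and not that it had no reads.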

How the results depend on the processing

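Counts of calls at W12 h moved with most settings. For all siRNAs, 22-nt members and 23-nt members (153, 5 and 1), they were 0, 0 and 0 with no replicate block, 1334, 13 and 6 with no filter on zeros (4255 siRNAs), 71, 2 and 0 without the trend, 99, 1 and 0 by edgeR and the same by DESeq2, 95, 1 and 0 with a median ratio of 0, and 49, 1 and 0 with the W1 h and W3 h columns of replicate 1 left out (13 libraries, chosen after seeing the data). With a pseudocount of 0.01 RPM they were 82, 4 and 0, and with 1 RPM 206, 5 and 1. Among siRNAs with a mean of at least 1 RPM they were 201, 5 and 1. Leaving out each replicate in turn gave 1 to 937, 0 to 11 and 0 to 5, the highest without replicate 3. At W6 h the count of all was 6, against 0 with no replicate block, 3 without the trend, 23 by edgeR, 27 by DESeq2, 15 with a median ratio of 0, 1 to 118 with each replicate left out, and 640 with no filter on zeros, where 2 members of 22 nt and 4 of 23 nt were called. Leaving out replicates gave 0 to 1 members of 22 nt at W6 h. With no filter on zeros, 541 of all, 2 of 22 nt and 5 of 23 nt were called at W1 h, and 519, 1 and 5 at W3 h. In that fit a time point at 0 in all replicates has no spread. The W12 h change of SRNA19366519 (-0.08) became 0.18, 0.21 and 0.37 by edgeR, DESeq2 and a median of 0, and ranged from -0.35 to 0.071 with a replicate left out (0.05 without replicate 3). SRNA22213130 (-0.25) became 0.34, 0.33 and 0.20, SRNA1759482 (-0.43) 0.15, 0.17 and 0.013, and SRNA16051497 (0.09) -0.04 and -0.16 without replicates 2 and 3 and 0.48 without replicate 1. A CleaveLand p of at most 0.01 left 11 members of 22 nt with 13 sites and 3 of 23 nt with 3 sites. Category 0 left 17 sites of 23 nt. Sites in both libraries left 12 members with 16 sites and 5 with 5. The cause of these differences was not tested. Depth limits the lowest values: 1 read is about 0.05 RPM.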
